A study of Mus musculus with 9 samples.

Results

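The genes described here encode the transport and gate machinery of the cilium: 49 genes of intraflagellar transport (IFT), the BBSome and the transition zone, with a few motor, ciliary membrane and Hedgehog genes. They were listed by symbol from known roles, with earlier results of these data known. All 49 were among the 55704 genes of the deposited table, and all 49 were among the 20207 genes with a mean of at least 0.1 FPKM (fragments scaled by the length of a gene and the size of a library) that were tested. By role they were 6 IFT-A genes, 7 IFT-B core genes, 6 IFT-B peripheral genes, 7 BBSome subunits, 3 genes of BBSome recruitment and chaperonins, 11 genes of the MKS module of the transition zone, 4 genes of its NPHP module with Cep290, and 5 motor, membrane and Hedgehog genes.

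A primary cilium is a single antenna of microtubules that grows from the older centriole of a cell that is not dividing, and it is taken down before mitosis. IFT trains carry tubulin and receptors along it: IFT-B serves the way to the tip with kinesin, and IFT-A the way back with dynein. The BBSome is a coat that rides on these trains and carries membrane proteins, and the transition zone at the base is a gate that decides which proteins enter and leave. In the subventricular zone (SVZ), neural stem cells (NSCs) bear a primary cilium that reaches the ventricle, and Hedgehog signalling passes through it.

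The series holds 9 RNA-seq libraries of mouse NSCs, 3 for each of 3 groups. The cells came from the SVZ of adult C57BL/6 mice of 8 to 9 weeks, with 2 female and 2 male mice pooled for each isolation, and were passaged with EGF and bFGF. By the protocol given for all 9 libraries, cells were plated on an adhesive coat with bFGF and EGF for 16 to 18 h. bFGF/EGF-treated NSCs, which divide, are labelled day 0, and bFGF/BMP4-treated and BMP4-treated NSCs were kept for 6 more days with bFGF and BMP4 or with BMP4 alone. Each factor was at 20 ng/mL, and EGF was absent from both later groups. BMP4 against bFGF/BMP4 is a comparison at the same day and differs in bFGF, whereas any difference from bFGF/EGF also holds 6 days in culture. The labels do not say whether the libraries of a group came from separate isolations, so that p-values measure the spread between these libraries.

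Each library held 15892854 to 17419822 fragments on genes, and the lowest number of fragments for any of the 49 genes in any library was 28 (Bbs5). The mean over the 9 libraries ran from 0.894 FPKM (Cep290) to 20.4 FPKM (Kif3a), with a median of 4.07 FPKM. Markers listed for the labelled cell type (Nes, Sox2, Slc1a3, Fabp7 and Prom1) summed to 968 to 1122 FPKM in the bFGF/EGF libraries, 491 to 571 in the bFGF/BMP4 libraries and 634 to 843 in the BMP4 libraries. Fabp7 carried most of each sum (655, 272 and 484 FPKM on average), while Nes was at 151, 3.55 and 15.8 FPKM and Prom1 at 0.660, 0.151 and 2.49 FPKM. Of the 5 markers, 3 fell (23.6% of all genes tested) and 1 rose (25%) in bFGF/BMP4 against bFGF/EGF. In BMP4 against bFGF/BMP4, 3 rose (12.2% of all genes tested) and none fell (8.89%). The pairwise correlation of libraries on the log2 scale was 0.950 to 0.964 within groups and at most 0.915 between groups, and no library stood apart from its group.

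The 49 genes were mostly highest in BMP4-treated NSCs. The mean of the BMP4 group was the highest of the 3 groups for 38 genes, where 35.4% of all genes tested had this order. The bFGF/EGF mean was the highest for 7 genes (38.3% of all genes) and the bFGF/BMP4 mean for 4 (26.3%). At the other end, the lowest mean was in bFGF/EGF for 27 genes (45.5% of all genes), in bFGF/BMP4 for 21 (23.9%) and in BMP4 for 1, Ift140 (30.7%). Set relative to the bFGF/EGF mean, the average of the 49 genes on the log2 scale was 0.64, 0.54 and 0.58 in the BMP4 libraries and 0.08, -0.02 and 0.06 in the bFGF/BMP4 libraries.

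**Figure D1:**
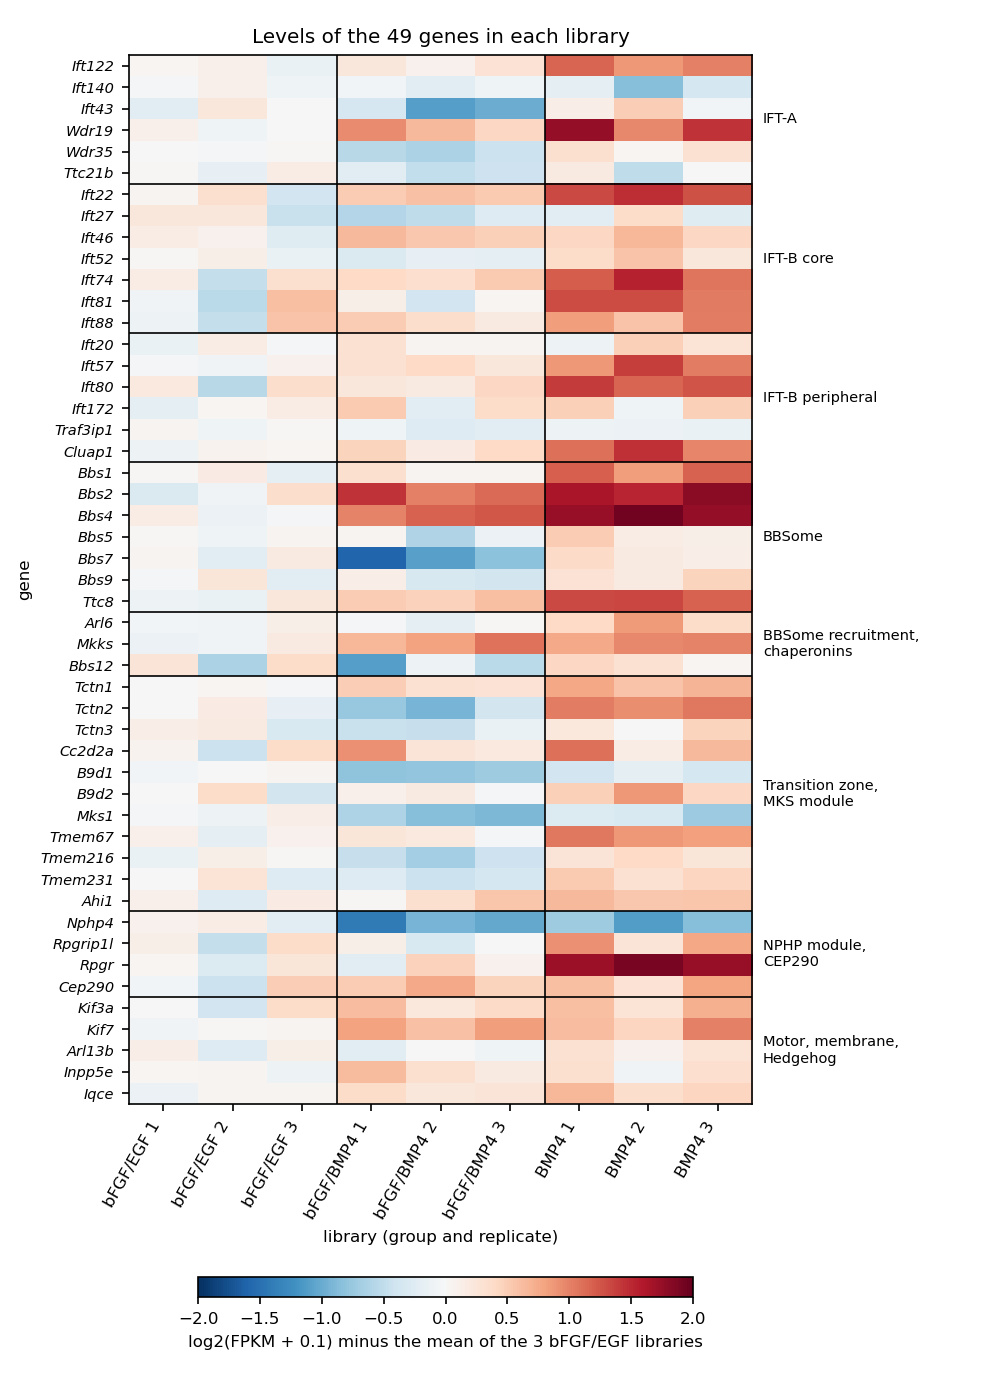
Level of each of the 49 genes (vertical axis, grouped by role) in each of the 9 libraries (horizontal axis), as log2(FPKM + 0.1) minus the mean of the 3 bFGF/EGF libraries of that gene (colour). Bbs2, Bbs4 and Rpgr are deep red in the BMP4 libraries, whereas Bbs7 and Nphp4 are deep blue in the bFGF/BMP4 libraries.

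At day 6, 21 of the 49 genes rose and none fell in BMP4 against bFGF/BMP4 (limma on log2(FPKM + 0.1), adjusted p of at most 0.05, adjusted by Benjamini-Hochberg over all genes tested). Among all genes tested, 12.2% were called higher and 8.89% lower. The median log2 fold change of the 49 genes was 0.51 against 0 for all genes, and 44 of the 49 values were above 0. At an unadjusted p under 0.05 limma counted 28 genes higher (17.9% of all genes) and 0 lower (14.5%), and limma-voom on the rebuilt fragment numbers called 22 higher and 0 lower. The libraries of the groups did not overlap in 33 genes that were higher (20.5% of all genes) and in 0 that were lower (18.3%). With a fold of at least 2 as well, 6 genes rose (8.41% of all genes) and 0 fell (5.14%). Fold changes on this scale understate the change of genes of low FPKM. In bulk RNA, a change in the number of cells that express a gene and a change in the RNA of each cell cannot be told apart.

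Between bFGF/BMP4 and bFGF/EGF, 8 genes rose and 8 fell, where 25% of all genes were called higher and 23.6% lower. The median was 0.14, against 0.06 for all genes, and 27 values were above 0. The groups did not overlap in 14 genes that were higher (30.2% of all genes) and 11 that were lower (27.5%). With a fold of at least 2, 2 rose (16.5% of all genes) and 2 fell (14.1%). Between BMP4 and bFGF/EGF, 26 genes rose, where 29.6% of all genes were called higher, and 3 fell, where 25.3% were called lower. The median was 0.54, against 0.10 for all genes, and 42 values were above 0. The groups did not overlap in 28 genes that were higher (32.6% of all genes) and 5 that were lower (27.8%). With a fold of at least 2, 14 rose (21.3% of all genes) and 0 fell (15.4%). These 3 comparisons share their libraries in pairs, and a low level in bFGF/BMP4 enters the first as a rise and the second as a fall.

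**Figure D2:**
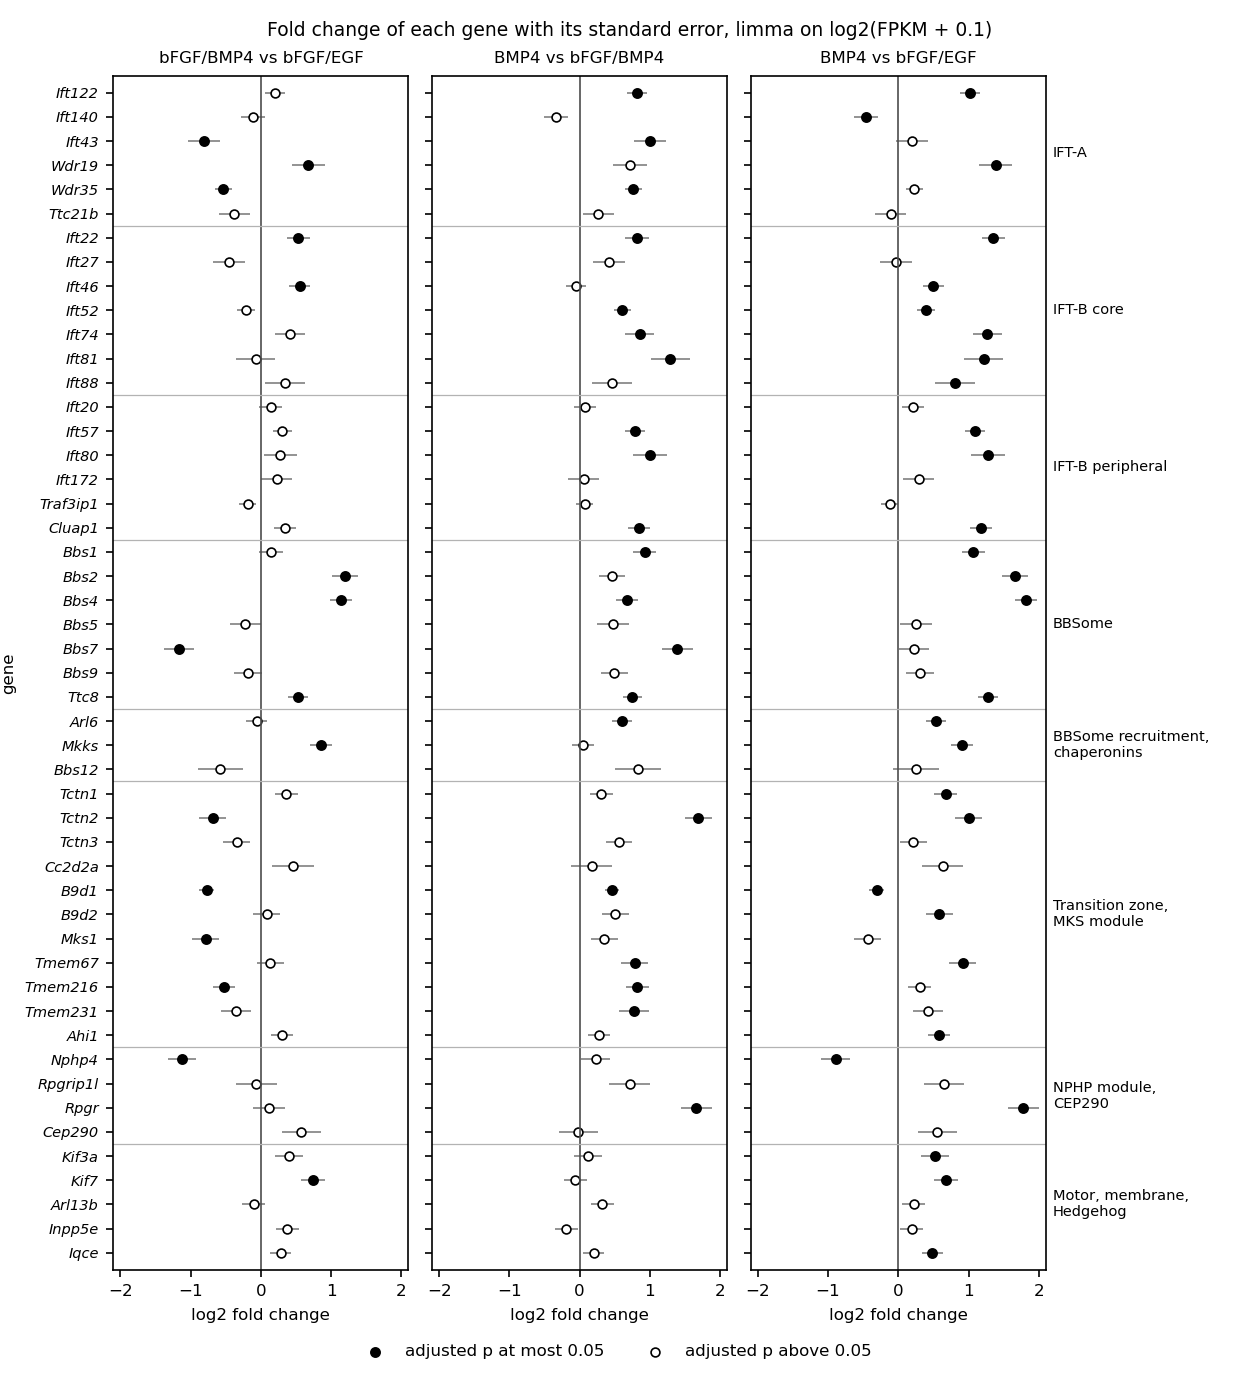
Log2 fold change (horizontal axes) of each of the 49 genes (vertical axis, grouped by role) in the 3 comparisons, from limma on log2(FPKM + 0.1), where bars are 1 standard error and filled points have an adjusted p of at most 0.05. In the middle panel the 21 filled points all lie right of 0, and in the left panel 8 lie on each side.

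The promoters of these genes were looked at for the X-box, the site that RFX transcription factors bind in genes of the cilium. An X-box-type match was defined as GTNNCC and GNAAC, 3 bases apart, on either strand of the RefSeq (GRCm38.p6) window from 250 bases before to 50 bases after a gene start. Of the 44 genes with a window, 13 held it (29.5%), against 372 of 11738 genes tested (3.17%). The matches were in 7 of 10 MKS module genes (Tctn1, Tctn2, B9d2, Mks1, Tmem216, Tmem231 and Ahi1), in 3 of 7 BBSome genes (Bbs1, Bbs4 and Bbs7), and in Ift22, Ift57 and Nphp4. None of the windows of 5 IFT-A genes, 3 recruitment and chaperonin genes and 4 motor, membrane and Hedgehog genes held one. Windows were not found for Ift122, Ift80, Ift81, Iqce and Tmem67.

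Shown are the sites of the genes whose values in every library are given further on and whose window held a match, each read in the direction of the motif, with the 14 bases of the match in capitals between 8 bases on either side.
Tctn2: gaggaccaGTAGCCATGGTAACctccaatc
Tmem216: catgttcaGTCCCCATGGAAACtgcgtaca
Ahi1: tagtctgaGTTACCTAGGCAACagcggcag
Bbs4: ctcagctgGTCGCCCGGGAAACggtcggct
Bbs7: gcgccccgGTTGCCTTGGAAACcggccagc
Nphp4: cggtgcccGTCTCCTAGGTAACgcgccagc

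The coordinates that follow are those of the 30 bases printed, while distances from the start are those of the 14 in capitals. The Tctn2 site lay 62 to 49 bases before the RefSeq start (GRCm39 chr5:124736742-124736771, minus strand) and the Bbs7 site 121 to 108 bases before it (chr3:36667638-36667667, minus strand). The Nphp4 site lay 231 to 218 bases before the RefSeq start (chr4:152562360-152562389, plus strand), which is inside the longest gene model. Bases 24 to 37 after the start held the Bbs4 site (chr9:59260747-59260776, minus strand), bases 20 to 33 the Tmem216 site (chr19:10533087-10533116, plus strand) and bases 22 to 35 the Ahi1 site (chr10:20828459-20828488, plus strand). The GRCm39 positions were found by exact match of the whole window to that genome. Over the 13 genes there were 14 matches, 7 before the start and 7 in the first 50 bases after it, and 4 of them read as the motif on both strands.

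Of the genes called higher in BMP4 against bFGF/BMP4 that had a window, 8 of 17 held the X-box-type match (47.1%), and of those not called, 5 of 27 did (18.5%). On the sense strand alone this difference was absent, with 3 of 17 (17.6%) and 5 of 27 (18.5%). For the shorter motif GTTGCC, which can lie inside an X-box-type match, the order was the opposite, with 7 of 17 (41.2%) and 14 of 27 (51.9%). GTTGCC was found for 21 of the 44 genes (47.7%) and for 15.0% of all genes tested that had a window. CCAAT, a common promoter motif searched on both strands in the same way, was found for 26 of the 44 genes (59.1%) and for 42.8% of all genes tested. A match describes letters in a window and is not a measured site.

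**Figure D3:**
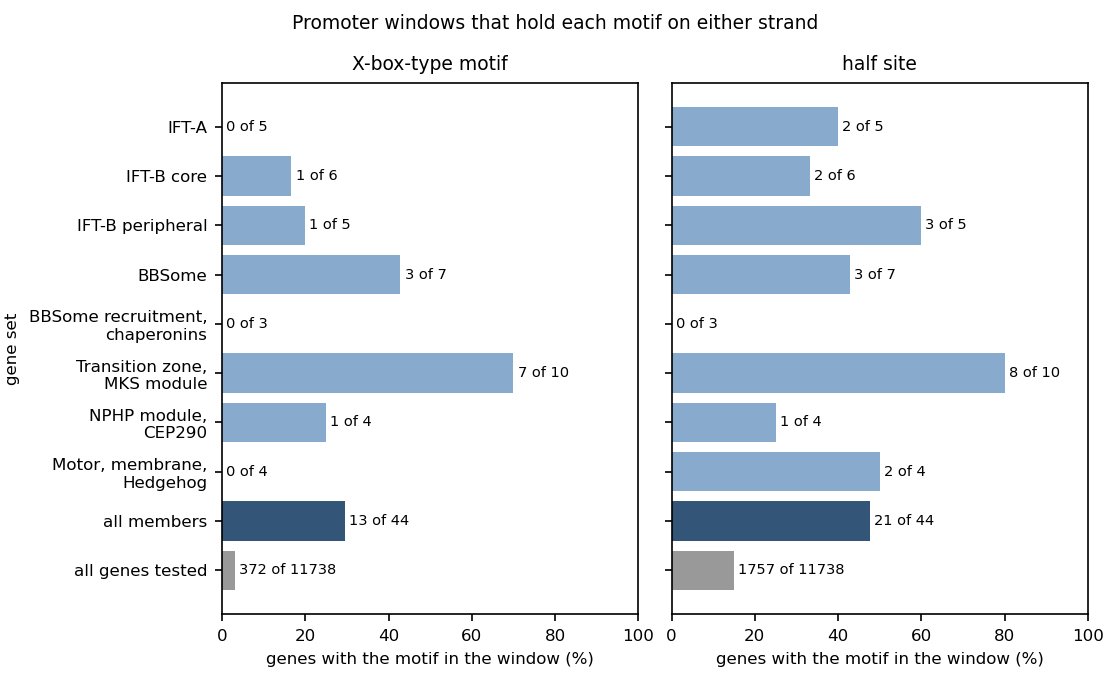
Share of genes (horizontal axes, %) whose RefSeq promoter window holds the X-box-type motif (left) or GTTGCC (right) on either strand, by role, for all of the 49 genes with a window and for all genes tested, where labels give the numbers of genes. The MKS module has the longest bars in both panels, at 7 of 10 and 8 of 10 genes.

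For the counts by role that follow, 12.2% of all genes tested were called higher and 8.89% lower in BMP4 against bFGF/BMP4. In bFGF/BMP4 against bFGF/EGF these shares were 25% and 23.6%, and in BMP4 against bFGF/EGF 29.6% and 25.3%. The BMP4 libraries lay above those of bFGF/BMP4 without overlap in 20.5% of all genes. IFT-A serves the return path. Against bFGF/BMP4, 3 of its 6 genes rose with BMP4 (Ift122, Ift43 and Wdr35), with a median of 0.74. From bFGF/EGF to bFGF/BMP4, Ift43 and Wdr35 fell and Wdr19 rose, with a median of -0.25. Relative to bFGF/EGF, Ift122 and Wdr19 rose and Ift140 fell with BMP4, with a median of 0.21.

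Wdr35 encodes a peripheral IFT-A subunit and lies at GRCm39 chr12:9023892-9078857. Its levels were 7.16, 7.09 and 7.28 FPKM with bFGF/EGF, 4.88, 4.57 and 5.31 with bFGF/BMP4 and 9.03, 7.39 and 8.91 with BMP4. The bFGF/BMP4 libraries lay below both other groups, and the BMP4 libraries were all above those of bFGF/EGF by a smaller margin. It fell by 0.54 on the log2 scale in bFGF/BMP4 against bFGF/EGF (SE 0.12, limma adjusted p = 0.00469), rose by 0.76 in BMP4 against bFGF/BMP4 (SE 0.12, adjusted p = 0.00151), and differed by 0.23 between BMP4 and bFGF/EGF (adjusted p = 0.147).

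Ift43, a small peripheral subunit of the same complex (chr12:86129269-86209234), had the same order with a wider spread. Its levels were 5.56, 7.62 and 6.55 FPKM with bFGF/EGF, 5.13, 3.00 and 3.21 with bFGF/BMP4 and 7.16, 9.24 and 6.28 with BMP4. Replicate 1 of bFGF/BMP4 was close to the lowest bFGF/EGF library without overlapping it. The fall of 0.81 (SE 0.23, limma adjusted p = 0.0136) and the rise of 1.00 (SE 0.23, adjusted p = 0.0102) were both past the threshold, and BMP4 and bFGF/EGF differed by 0.19 (adjusted p = 0.501). The rise was lost without replicate 2 of bFGF/BMP4 (adjusted p = 0.05003), and the fall without that library (0.0604, the highest value), replicate 3 of bFGF/BMP4 or replicate 2 of bFGF/EGF.

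Ift122, a core IFT-A subunit, rose by 0.82 with BMP4 against bFGF/BMP4 and by 1.02 against bFGF/EGF, from 2.97 ± 0.25 FPKM (SD, n = 3) with bFGF/EGF to 6.13 ± 0.64. Wdr19, another core subunit, was at 1.04 ± 0.07, 1.74 ± 0.34 and 2.96 ± 0.82 FPKM in bFGF/EGF, bFGF/BMP4 and BMP4. Its rise of 1.39 in BMP4 against bFGF/EGF held without each library. Its rise of 0.67 in bFGF/BMP4 against bFGF/EGF (limma adjusted p = 0.0377) was lost when any of 6 libraries was left out (all 3 of bFGF/EGF, replicates 1 and 2 of bFGF/BMP4 and replicate 3 of BMP4), at up to 0.128 without replicate 1 of bFGF/BMP4, and with a pseudocount of 1, no filter, the TPM scale or quantile normalization (up to 0.113). Ift140, the third core subunit, was the 1 gene of the 49 with its lowest mean in BMP4, at 5.96 ± 0.41, 5.48 ± 0.30 and 4.38 ± 1.01 FPKM. Its fall of 0.46 against bFGF/EGF (adjusted p = 0.0450) was lost without any one of 8 libraries, that is every library but replicate 1 of BMP4, with at most 0.117 without replicate 2 of bFGF/EGF, and also in 4 other fits (up to 0.0923). Its exons share 8.55% of their bases with Tmem204 on the opposite strand, whose log2 fold change there was 1.62. Ttc21b was not called in any comparison (fold changes from -0.38 to 0.27).

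The IFT-B core binds tubulin and holds the train together. Of its 7 genes, 4 rose in BMP4 against bFGF/BMP4 (Ift22, Ift52, Ift74 and Ift81), and the libraries of the groups did not overlap in 6. Against bFGF/EGF, 6 of 7 rose with BMP4, all but Ift27, and with bFGF/BMP4 Ift22 and Ift46 rose and none of the 7 fell. The medians were 0.61, 0.81 and 0.35 in that order.

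Ift52, which joins the core to the peripheral part (chr2:162859151-162889887), had the highest mean of these 7. It was at 10.9, 11.6 and 9.76 FPKM with bFGF/EGF, 8.77, 9.58 and 9.34 with bFGF/BMP4 and 13.9, 16.0 and 12.6 with BMP4. Every BMP4 library lay above every other library, and the bFGF/BMP4 libraries lay just below those of bFGF/EGF. It rose by 0.61 in BMP4 against bFGF/BMP4 (SE 0.12, limma adjusted p = 0.00553) and by 0.39 against bFGF/EGF (SE 0.12, adjusted p = 0.0199), and bFGF/BMP4 differed from bFGF/EGF by -0.21 (adjusted p = 0.181). The rise of 0.39 was lost without replicate 3 of bFGF/EGF (0.0588) and with limma-voom (0.0612).

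Ift74 and Ift81, the pair that carries tubulin, rose by 0.85 and 1.29 in BMP4 against bFGF/BMP4 and by 1.27 and 1.22 against bFGF/EGF. The mean of Ift81 was 2.09 ± 0.89 FPKM with bFGF/EGF, 1.89 ± 0.35 with bFGF/BMP4 and 4.74 ± 0.51 with BMP4. The first rise of Ift74 was lost without replicate 2 of bFGF/BMP4 (limma adjusted p = 0.0599) or replicate 2 of BMP4. Ift22, a small GTPase, rose stepwise from 5.11 ± 1.23 to 7.30 ± 0.21 and 12.98 ± 0.96 FPKM. Its step from bFGF/EGF to bFGF/BMP4 (0.53, adjusted p = 0.0236) was lost without replicate 3 of bFGF/EGF or any of the 3 bFGF/BMP4 libraries (up to 0.0718, without replicate 2) and with only these 2 groups in the fit (0.0588).

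Ift46 was higher by 0.55 in bFGF/BMP4 and by 0.50 in BMP4 than in bFGF/EGF, and the BMP4 and bFGF/BMP4 groups differed by -0.05 (limma adjusted p = 0.857). Ift88, a core subunit whose loss is widely used to remove cilia, rose by 0.81 in BMP4 against bFGF/EGF (adjusted p = 0.0330), from 0.878 ± 0.366 to 1.55 ± 0.26 FPKM, with overlapping libraries. That call was lost without any one of 5 libraries (replicates 1 and 2 of bFGF/EGF, replicate 2 of bFGF/BMP4 and replicates 1 and 3 of BMP4), at up to 0.112 without replicate 3 of BMP4, and in 4 other fits (up to 0.151 with quantile normalization). Ift27, a GTPase that helps the BBSome leave the cilium, differed by -0.03 between BMP4 and bFGF/EGF and was called in no comparison.

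Of the 6 IFT-B peripheral genes, which contact the kinesin motor, Ift57, Ift80 and Cluap1 rose in BMP4 against both other groups and none fell. They rose by 0.79, 1.00 and 0.84 against bFGF/BMP4 and by 1.10, 1.28 and 1.18 against bFGF/EGF. The other 3 (Ift20, Ift172 and Traf3ip1) had fold changes of 0.06 to 0.08 against bFGF/BMP4. No gene of this group was called in bFGF/BMP4 against bFGF/EGF by limma or limma-voom, and 0 had an unadjusted p under 0.05. The rise of Ift80 against bFGF/BMP4 was lost without replicate 1 of BMP4 (limma adjusted p = 0.0588) or replicate 2 of bFGF/BMP4.

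Ift20, which also works at the Golgi (chr11:78426693-78432563), had the highest mean of the peripheral genes. It was at 13.5, 16.5 and 14.6 FPKM with bFGF/EGF, 18.2, 15.4 and 15.4 with bFGF/BMP4 and 13.7, 20.6 and 18.0 with BMP4. The 3 groups overlapped. Its fold changes were 0.14, 0.08 and 0.21 (limma adjusted p = 0.509 for bFGF/BMP4 against bFGF/EGF, 0.8 for BMP4 against bFGF/BMP4 and 0.283 for BMP4 against bFGF/EGF). Its exons share 12.4% of their bases with Tmem97 on the opposite strand, which fell by 1.57 in bFGF/BMP4 and by 2.08 in BMP4 against bFGF/EGF.

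All 7 BBSome subunits listed here were higher in every BMP4 library than in every bFGF/BMP4 library. Of them, 4 passed the test (Bbs1, Bbs4, Bbs7 and Ttc8), and the median was 0.67. From bFGF/EGF to bFGF/BMP4, Bbs2, Bbs4 and Ttc8 rose and Bbs7 fell, where 25% of all genes were called higher and 23.6% lower. With BMP4 against bFGF/EGF, Bbs1, Bbs2, Bbs4 and Ttc8 rose, each by more than 1 on the log2 scale, with a median of 1.07 for the 7. Bbs5 and Bbs9 were called in no comparison. Bbip1, placed in a list of BBSome partners and not among these 7, differed by 0.099 in BMP4 against bFGF/BMP4 (limma adjusted p = 0.727). It was at 8.95, 10.3 and 9.99 FPKM with bFGF/BMP4 and 8.79, 13.1 and 9.79 with BMP4, with overlapping libraries. Against bFGF/EGF it rose by 0.44 with bFGF/BMP4 (adjusted p = 0.0413) and by 0.54 with BMP4 (adjusted p = 0.0149).

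Bbs2, a subunit of the head of the complex (chr8:94794580-94825556), was at 2.50, 2.92 and 3.95 FPKM with bFGF/EGF, 8.52, 6.26 and 6.84 with bFGF/BMP4 and 9.75, 9.04 and 11.0 with BMP4. The groups were in 3 separate steps. Bbs2 rose by 1.19 in bFGF/BMP4 against bFGF/EGF (SE 0.19, limma adjusted p = 0.000466), the largest rise of the 49 genes in that comparison, and by 1.66 in BMP4 against bFGF/EGF (SE 0.19, adjusted p = 4.01e-05). BMP4 and bFGF/BMP4 differed by 0.46 (SE 0.19, adjusted p = 0.112).

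Bbs4, a subunit of the body of the complex (chr9:59229246-59260791, with the site printed above), was at 1.21, 0.995 and 1.06 FPKM with bFGF/EGF, 2.27, 2.59 and 2.70 with bFGF/BMP4 and 3.88, 4.43 and 3.90 with BMP4. Here too no groups overlapped. It rose by 1.14 in bFGF/BMP4 against bFGF/EGF (SE 0.16, limma adjusted p = 0.000215), by 0.67 in BMP4 against bFGF/BMP4 (SE 0.16, adjusted p = 0.0126) and by 1.81 in BMP4 against bFGF/EGF (SE 0.16, adjusted p = 7.24e-06), the largest rise of the 49 genes in the last comparison.

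Bbs7, the partner of Bbs2 in the head (chr3:36627290-36667649, with the site printed above), went the other way with bFGF/BMP4. It was at 3.44, 2.78 and 3.72 FPKM with bFGF/EGF, 1.03, 1.49 and 1.83 with bFGF/BMP4 and 4.30, 3.75 and 3.60 with BMP4. The bFGF/BMP4 libraries were all below 2 FPKM, and the other groups overlapped. It fell by 1.16 in bFGF/BMP4 against bFGF/EGF (SE 0.21, limma adjusted p = 0.00136), the largest fall of the 49 genes there, and rose by 1.39 in BMP4 against bFGF/BMP4 (SE 0.21, adjusted p = 0.00119). BMP4 and bFGF/EGF differed by 0.23 (adjusted p = 0.397).

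Ttc8 rose by 0.53, 0.75 and 1.28 in bFGF/BMP4 against bFGF/EGF, BMP4 against bFGF/BMP4 and BMP4 against bFGF/EGF, from 3.09 ± 0.45 over 4.47 ± 0.24 to 7.59 ± 0.47 FPKM. Bbs1 rose with BMP4 against each other group (0.93 against bFGF/BMP4 and 1.07 against bFGF/EGF) and differed by 0.14 between these (limma adjusted p = 0.514).

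**Figure D4:**
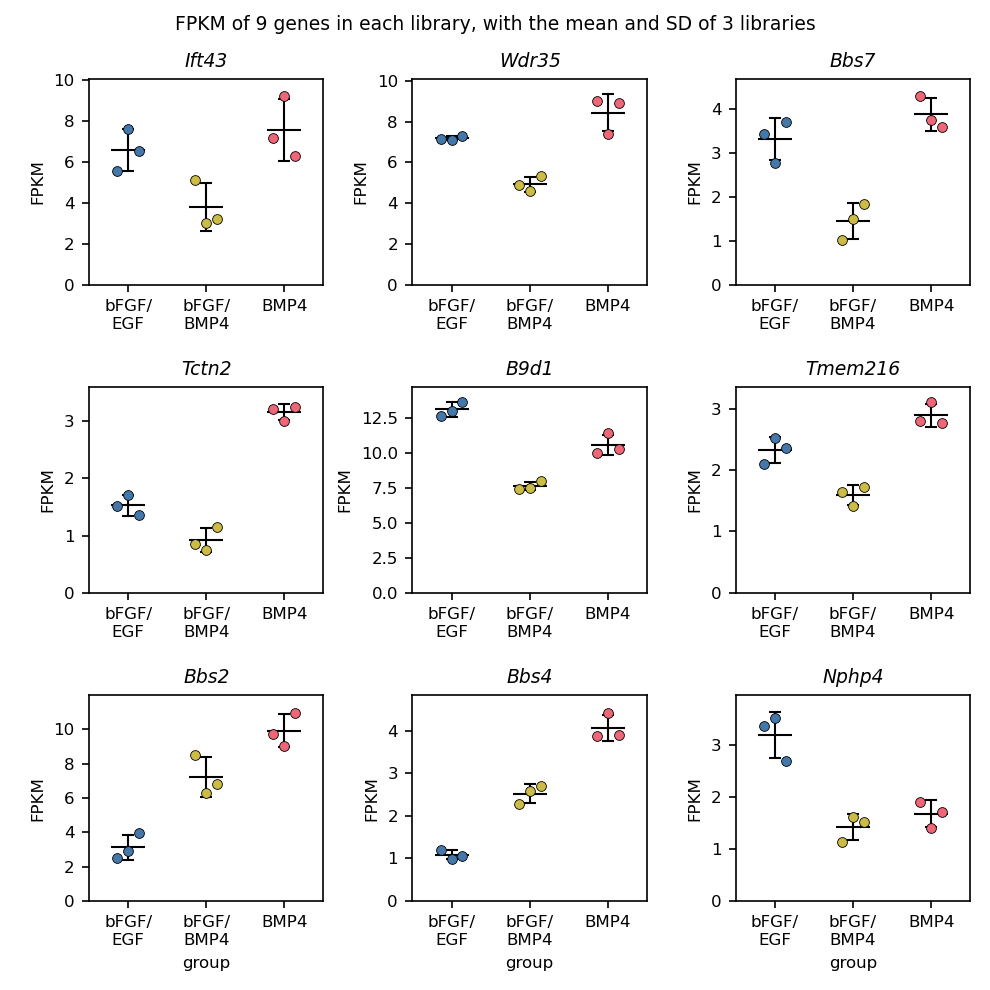
FPKM (vertical axes, from 0) of 9 genes in the 3 groups (horizontal axes), where points are the 3 libraries, long bars the mean and short bars 1 SD. Ift43, Wdr35, Bbs7, Tctn2, B9d1 and Tmem216 are lowest in bFGF/BMP4, Bbs2 and Bbs4 climb over the 3 groups, and Nphp4 is highest in bFGF/EGF.

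Arl6, the GTPase that brings the BBSome to membranes (chr16:59433312-59459791), rose with BMP4. It was at 8.02, 7.96 and 9.01 FPKM with bFGF/EGF, 8.16, 7.36 and 8.42 with bFGF/BMP4 and 11.0, 15.0 and 10.8 with BMP4. The BMP4 libraries lay above the rest, and those of the other groups overlapped. It rose by 0.60 against bFGF/BMP4 (SE 0.14, limma adjusted p = 0.0144) and by 0.54 against bFGF/EGF (SE 0.14, adjusted p = 0.00979), and the former was lost without replicate 2 of bFGF/BMP4 (0.0621). Mkks, a chaperonin-like protein that helps to assemble the BBSome, rose by 0.85 in bFGF/BMP4 and by 0.90 in BMP4 against bFGF/EGF, with 0.05 between them (adjusted p = 0.868). Bbs12, of the same family, was called in no comparison.

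The MKS module of the transition zone is made of membrane proteins and their B9-domain partners. From bFGF/EGF to bFGF/BMP4, 4 of its 11 genes fell (Tctn2, B9d1, Mks1 and Tmem216) and none rose, with a median of -0.35. With BMP4, 5 of 11 rose (Tctn2, B9d1, Tmem67, Tmem216 and Tmem231) and none fell against bFGF/BMP4, all 11 fold changes were above 0, and the groups did not overlap in 8 genes. Against bFGF/EGF, 5 rose with BMP4 (Tctn1, Tctn2, B9d2, Tmem67 and Ahi1) and B9d1 fell.

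Tctn2, a tectonic of the membrane side of the gate (chr5:124736812-124765806, with the site printed above), had the largest rise of the 49 genes in BMP4 against bFGF/BMP4. It was at 1.52, 1.72 and 1.35 FPKM with bFGF/EGF, 0.860, 0.752 and 1.15 with bFGF/BMP4 and 3.21, 3.00 and 3.26 with BMP4. No groups overlapped. It rose by 1.69 in that comparison (SE 0.20, limma adjusted p = 0.000207), fell by 0.69 in bFGF/BMP4 against bFGF/EGF (SE 0.20, adjusted p = 0.0150) and rose by 1.00 in BMP4 against bFGF/EGF (SE 0.20, adjusted p = 0.00158). The fall was lost without replicate 2 of bFGF/BMP4 (0.0572).

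B9d1, a B9-domain protein (chr11:61395741-61425998), was at 12.7, 13.0 and 13.7 FPKM with bFGF/EGF, 7.46, 7.53 and 7.98 with bFGF/BMP4 and 10.1, 11.4 and 10.3 with BMP4. The BMP4 libraries lay between the other groups without overlap. It fell by 0.77 in bFGF/BMP4 against bFGF/EGF (SE 0.10, limma adjusted p = 0.000174), rose by 0.46 in BMP4 against bFGF/BMP4 (SE 0.10, adjusted p = 0.00954) and fell by 0.31 in BMP4 against bFGF/EGF (SE 0.10, adjusted p = 0.0273). The rise was lost with limma-voom (0.0574), and the last fall without replicate 3 of bFGF/EGF or replicate 1 or 3 of BMP4 (up to 0.0680, without replicate 1). Its exons share 10.0% of their bases with Epn2 and 9.37% with B9d1os, both on the opposite strand, which fell by 2.01 and 3.19 in BMP4 against bFGF/BMP4.

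Tmem216, a membrane protein of the gate (chr19:10511229-10533602, with the site printed above), was at 2.10, 2.52 and 2.36 FPKM with bFGF/EGF, 1.65, 1.41 and 1.72 with bFGF/BMP4 and 2.80, 3.10 and 2.77 with BMP4. Its groups did not overlap. It fell by 0.52 in bFGF/BMP4 against bFGF/EGF (SE 0.16, limma adjusted p = 0.0205) and rose by 0.82 in BMP4 against bFGF/BMP4 (SE 0.16, adjusted p = 0.00423), with 0.30 between BMP4 and bFGF/EGF (adjusted p = 0.133). The fall was lost without replicate 2 of bFGF/EGF or replicate 2 of bFGF/BMP4 (up to 0.0725, without the latter).

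Ahi1, the jouberin gene (chr10:20828393-20956329, with the site printed above), had the highest mean of the MKS module. It was at 13.2, 10.3 and 13.8 FPKM with bFGF/EGF, 12.6, 15.4 and 18.2 with bFGF/BMP4 and 19.3, 17.9 and 18.1 with BMP4. The bFGF/BMP4 libraries reached into both other groups, which did not overlap with each other. It rose by 0.58 in BMP4 against bFGF/EGF (SE 0.16, limma adjusted p = 0.0109), and the steps of 0.30 and 0.28 on either side of bFGF/BMP4 had adjusted p = 0.148 and 0.269.

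Among the other genes of this module, Mks1 fell by 0.79 in bFGF/BMP4 against bFGF/EGF, from 2.40 ± 0.20 to 1.35 ± 0.15 FPKM. Tmem67, a receptor-like membrane protein, rose by 0.78 in BMP4 against bFGF/BMP4 and by 0.92 against bFGF/EGF, and the former was lost without replicate 1 of BMP4 (limma adjusted p = 0.0587) or replicate 3 of bFGF/BMP4. Tmem231 rose by 0.77 in BMP4 against bFGF/BMP4, from 0.726 ± 0.049 to 1.31 ± 0.11 FPKM. That call was lost without replicate 2 or 3 of bFGF/BMP4 or replicate 1 or 3 of BMP4 (up to 0.0884, without replicate 1 of BMP4) and in 4 other fits (up to 0.0593). B9d2 rose by 0.59 in BMP4 against bFGF/EGF, a call lost without replicate 1 or 3 of bFGF/EGF or replicate 2 of BMP4 (up to 0.0957, without the last) and with only these 2 groups in the fit (0.0691). Tctn1 rose by 0.67 in BMP4 against bFGF/EGF, and 28.2% of its exon bases are shared with Hvcn1 on the opposite strand, which was not tested. Tctn3 and Cc2d2a were called in no comparison.

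Nphp4, a scaffold of the NPHP module (chr4:152560978-152647642, with the site printed above), was lower in both groups with BMP4 than in bFGF/EGF. It was at 3.37, 3.52 and 2.69 FPKM with bFGF/EGF, 1.13, 1.62 and 1.51 with bFGF/BMP4 and 1.91, 1.40 and 1.72 with BMP4. Those 2 groups lay below every bFGF/EGF library and overlapped with each other. It fell by 1.12 in bFGF/BMP4 (SE 0.20, limma adjusted p = 0.00121) and by 0.89 in BMP4 (SE 0.20, adjusted p = 0.00391) against bFGF/EGF, the latter being the largest fall of the 49 genes there, and 0.23 lay between BMP4 and bFGF/BMP4 (adjusted p = 0.499).

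Rpgr, the retinitis pigmentosa GTPase regulator (chrX:9939860-10083159), was at 1.03 ± 0.20 FPKM with bFGF/EGF, 1.13 ± 0.29 with bFGF/BMP4 and 3.73 ± 0.27 with BMP4. It rose by 1.66 in BMP4 against bFGF/BMP4 (SE 0.22, limma adjusted p = 0.000504) and by 1.78 against bFGF/EGF (adjusted p = 8.57e-05). Rpgrip1l, a scaffold of the gate, and Cep290, which links its microtubules to the membrane, were called in no comparison. Cep290 was the lowest of the 49 genes, and its 3 group means were 0.668, 1.01 and 1.00 FPKM.

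Of the 5 motor, membrane and Hedgehog genes, none passed the test in BMP4 against bFGF/BMP4 (limma, adjusted p of at most 0.05), with a median of 0.12. At an unadjusted p under 0.05, 0 of the 5 were counted in either direction, and limma-voom called 0. Kif7, a kinesin of Hedgehog signalling at the ciliary tip, rose by 0.74 in bFGF/BMP4 and by 0.68 in BMP4 against bFGF/EGF. Iqce, which holds Hedgehog proteins at the base, rose by 0.48 in BMP4 against bFGF/EGF, a call lost without replicate 1 of bFGF/EGF or replicate 1 of BMP4 (up to 0.0693, without the latter) and on the TPM scale or with quantile normalization (up to 0.0906). Arl13b, the membrane GTPase used to stain cilia, and Inpp5e, the phosphatase that sets ciliary lipids, were called in no comparison. For Inpp5e, 32.3% of the exon bases are shared with Pmpca on the opposite strand, which was at 31.3 FPKM.

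Kif3a, a motor subunit of the kinesin that pulls IFT-B (chr11:53458168-53495071), had the highest mean of the 49 genes. It was at 16.1, 12.4 and 20.8 FPKM with bFGF/EGF, 24.7, 18.6 and 21.1 with bFGF/BMP4 and 24.4, 19.4 and 26.3 with BMP4. All groups overlapped. It differed by 0.40 in bFGF/BMP4 against bFGF/EGF (SE 0.20, limma adjusted p = 0.121) and by 0.12 in BMP4 against bFGF/BMP4 (SE 0.20, adjusted p = 0.731). The rise of 0.53 in BMP4 against bFGF/EGF (SE 0.20, adjusted p = 0.0453) was lost without any one of 7 libraries (replicates 1 and 2 of bFGF/EGF, all 3 of bFGF/BMP4 and replicates 1 and 3 of BMP4), at up to 0.158 without replicate 2 of bFGF/EGF, and in 4 other fits (up to 0.165).

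Libraries of a group differed over the 49 genes. Replicate 2 of BMP4 was the highest of its group for 17 of the 49 genes and the lowest for 25. Across the 49 genes, its deviation from the group mean had a Spearman correlation of -0.29 with exon length, and replicate 1 had 0.29. In the bFGF/EGF group replicate 2 had -0.33 and replicate 3 had 0.28. Across all genes these 4 values were -0.11, 0.10, -0.09 and 0.02. The genes of a library share its RNA and depth, and the part of length in the results was not tested. The exons of 30 of the 49 genes share bases with a gene of the other strand. The sources used here do not say whether strand entered the counting, and without it the reads of such pairs cannot be told apart.

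Other genes of the same machinery, from lists made by role, moved in both directions. With BMP4 against bFGF/BMP4, 4 of 6 other IFT genes rose and 1 fell, where 12.2% of all genes were called higher and 8.89% lower. Among them, Ift70b rose by 1.41 (limma adjusted p = 0.000107) and Ift25 by 0.90. The 1 that fell was Tulp3 (-0.49), an adaptor of membrane cargo and not a subunit. Of 10 motor genes, 4 rose and none fell, with 1.49 for Dync2li1 (adjusted p = 0.000217) and 1.06 for Dync2i2, both of the dynein of the return path. Lztfl1, which controls the entry of the BBSome, rose by 0.70 and Rab3ip, an exchange factor for Rab8, fell by 0.45 among 6 BBSome partners. None of 12 basal body and distal appendage genes was called in either direction by limma or limma-voom, with 0 higher and 1 lower at an unadjusted p under 0.05 and a median of -0.18.

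Between BMP4 and bFGF/EGF, 2 of 6 other IFT genes were higher and 0 lower, and for the motors 5 and 1 of 10. For the BBSome partners these counts were 2 and 3 of 6, and for the basal body 1 and 6 of 12. Of all genes tested, 29.6% were called higher and 25.3% lower there. From bFGF/EGF to bFGF/BMP4 these lists gave 2 and 2, 3 and 2, 1 and 3, and 1 and 4 in that order. There, 25% of all genes were called higher and 23.6% lower. Of 13 ciliary signalling genes tested, 2 rose (12.2% of all genes) and 5 fell (8.89%) in BMP4 against bFGF/BMP4. Among them were Gli3, a Hedgehog effector, which fell by 1.80, and Sstr3, a receptor of neuronal cilia, which rose by 1.63 at 0.284 FPKM with BMP4.

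A list of RFX factors, Foxj1 and other regulators of transcription had 8 genes tested. Of these, 4 rose in BMP4 against bFGF/BMP4 and none fell, where 12.2% of all genes were called higher and 8.89% lower. Foxj1, the regulator of motile cilia, rose by 2.45 (limma adjusted p = 1.58e-05), Rfx2 by 1.38, and Rfx4 and Rfx3 by 1.30 and 0.89. Rfx3, Rfx4 and, above, Bbip1 and Tulp3 were named after their values were seen. Rfx2 rose by 1.78 and Rfx4 fell by 1.44 in bFGF/BMP4 against bFGF/EGF, where 2 of the 8 rose and 4 fell. Of all genes tested, 25% were called higher and 23.6% lower there. Against bFGF/EGF, 3 of the 8 rose and 3 fell with BMP4, where 29.6% of all genes were called higher and 25.3% lower. Of 9 genes of cilium disassembly, 3 fell (8.89% of all genes) and none rose (12.2%) in BMP4 against bFGF/BMP4. Among the 3 were the mitotic kinases Plk1 (by 2.42) and Nek2 (by 2.03).

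Markers of other cells and of division also differed between the groups. The 15 markers of ependymal and motile cilia summed to 10.2 to 14.3 FPKM in the bFGF/EGF libraries, 16.8 to 17.5 in the bFGF/BMP4 libraries and 65.9 to 76.9 in the BMP4 libraries, of which Foxj1 made up 8.26, 10.0 and 55.1 on average. Of the 10 that were tested, 7 rose and none fell in BMP4 against bFGF/BMP4, where 12.2% of all genes were called higher and 8.89% lower. Tmem212 was at 0 in all 9 libraries, Mcidas was at 0 in the BMP4 libraries, and 3 of the 15 had at most 3 fragments in every library. The 6 proliferation markers summed to 251 to 487, 67.0 to 109 and 37.1 to 50.7 FPKM, and the 5 astrocyte markers to 126 to 172, 412 to 457 and 3114 to 3994 FPKM. Gfap made up 2566 FPKM of the last on average and Aldh1l1 135 FPKM of the first, and in BMP4 against bFGF/BMP4 3 of the 5 astrocyte markers rose and 2 fell (Gjb6 by 3.23 and Slc1a2 by 1.43). The 5 neuron and neuroblast markers summed to 70.3 to 84.0, 46.4 to 51.4 and 139 to 208 FPKM. Of the 4 that were tested, 2 rose and 1 fell in BMP4 against bFGF/BMP4, with log2 fold changes from -1.47 to 3.06. Microglial markers summed to at most 1.74 FPKM and vascular markers to at most 5.41 FPKM in any library. The part of each of these in the results on the 49 genes was not tested.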

How the data were processed

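The authors cleaned paired-end reads with fastp 0.19.7, aligned them to mm39 with HISAT2 2.0.5 and, per the submitters' processing notes, counted them with featureCounts 1.5.0-p3. The authors deposited FPKM values for 55704 genes, with 1 column per library. The annotation release is not given in the sources used here. DESeq2, the test of the study, was not used on these FPKM values. Instead limma 3.58.1 in R 4.3.3 was run on log2(FPKM + 0.1), with a trend and all 9 libraries in the fit, for genes with a mean of at least 0.1 FPKM. Calls had an adjusted p of at most 0.05 (Benjamini-Hochberg) and no fold threshold.

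Whole fragment numbers (within 0.01) were rebuilt for all 30860 genes above 0 and used in limma-voom, depth and floors. Gene models were those of GENCODE vM39, and promoter windows those of RefSeq. The limma fit was also run on simulated counts with the same spread for every gene and changes in the BMP4 group only. That run does not measure the spread between the real libraries. Python 3.11.15 was used with pandas 2.3.3 and matplotlib 3.10.9.

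The members and lists were chosen with earlier results of these data known. Values in every library are given for the highest member of each group by role, for the called members with the largest rise and fall in each comparison, and for members called in both directions. In the other lists the called genes with the 2 largest changes in BMP4 against bFGF/BMP4 are named, except where the text says so. A list of other transition zone genes and a list of oligodendrocyte lineage markers are not reported here. Alternatives were another pseudocount, filters, scalings, limma-voom, a replicate block, the groups compared alone, other thresholds, other motif definitions, and fits without 1 library each.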

Additional observations from a re-analysis of the deposited data

How the results depend on the processing

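With a fold change of at least 2 as an added threshold, the genes higher in BMP4 against bFGF/BMP4 went from 21 to 6, those higher and lower in bFGF/BMP4 against bFGF/EGF to 2 and 2, and those in BMP4 against bFGF/EGF to 14 and 0. At an adjusted p of at most 0.01, 14 genes were higher and 0 lower in BMP4 against bFGF/BMP4. The counts higher and lower were then 5 and 5 in bFGF/BMP4 against bFGF/EGF and 19 and 1 in BMP4 against bFGF/EGF. Leaving out each library gave 16 to 22 higher and 0 lower in BMP4 against bFGF/BMP4, 6 to 9 higher and 5 to 9 lower in bFGF/BMP4 against bFGF/EGF, and 22 to 28 higher and 1 to 2 lower in BMP4 against bFGF/EGF. The values of 16, 6 and 5 came without replicate 2 of bFGF/BMP4, and 1 without replicate 3 of bFGF/EGF or of BMP4. Of the called genes, 15 of 21, 6 of 8, 5 of 8, 21 of 26 and 1 of 3 (Nphp4) kept their call without every library in turn. Over 18 settings the median of the 49 genes was 0.42 to 0.57, 0.04 to 0.15 and 0.42 to 0.60 in the 3 comparisons. Deviations of same-numbered libraries from different groups had correlations of -0.08 to 0.12, and those of other pairs -0.15 to 0.08. Such values do not settle whether libraries were paired by number. The replicate block gave 21 and 0, 9 and 8, and 28 and 2. Quantile normalization moved the median of all genes in BMP4 against bFGF/EGF from 0.10 to -0.03.

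Fold changes near 0 that were not called changed sign. On the TPM scale, Ift172 (-0.011), Traf3ip1 (-4.9e-04) and Mkks (-0.020) did so in BMP4 against bFGF/BMP4, and with quantile normalization Bbs5 (-0.043) in BMP4 against bFGF/EGF and Tmem67 (-0.069) and Rpgr (-0.090) in bFGF/BMP4 against bFGF/EGF. When each library was left out, the range crossed 0 in that first comparison for Ift20 (-0.053 to 0.24), Ift172 (-0.15 to 0.25), Mkks (-0.037 to 0.17), Cc2d2a (-0.060 to 0.42), Cep290 (-0.13 to 0.12) and Kif7 (-0.22 to 0.068). From bFGF/EGF to bFGF/BMP4 it did so for Ift81 (-0.35 to 0.23), Ift80 (-5.5e-04 to 0.45), B9d2 (-0.11 to 0.26), Rpgrip1l (-0.30 to 0.12) and Rpgr (-0.061 to 0.27), and in BMP4 against bFGF/EGF for Ttc21b (-0.26 to 0.086), Ift27 (-0.26 to 0.079) and Bbs12 (-0.063 to 0.44). The cause was not tested. With GTTGCC in place of the X-box-type match, 47.7% of the 44 genes with a window and 15.0% of all genes tested with one held it, and on the sense strand alone 18.2% and 1.85% of these genes held the X-box-type match.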

Other observations

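Of the 49 genes, 13 (26.5%) start within 1000 bases of a protein-coding gene that runs the other way, against 1990 of 13787 protein-coding genes tested (14.4%). Cetn4, a centrin gene 223 bases from Bbs12, rose by 1.58 in BMP4 against bFGF/BMP4 (limma adjusted p = 0.00347), where Bbs12 differed by 0.83 (adjusted p = 0.104). Entpd1, an ectonucleotidase gene 108 bases from Tctn3, fell by 1.10 (adjusted p = 0.00498), where Tctn3 differed by 0.56 (adjusted p = 0.0650). Smc4, a condensin gene 24 bases from Ift80, fell by 1.51 in bFGF/BMP4 against bFGF/EGF (adjusted p = 0.000385), where Ift80 differed by 0.27 (adjusted p = 0.373). Of the 13 partners, 11, Smc4 among them, were not called in BMP4 against bFGF/BMP4. These genes were named after their values were seen.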
